A study of Mus musculus with 72 samples.

Results

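The potassium channel genes of mouse dorsal raphe *Pet1* neurons are described here. They were taken as every symbol beginning with Kcn that had a UMI, a counted RNA molecule, in 10 or more cells of the deposited 10X table. The table held 88 such symbols among 17231 genes, and 86 met the rule. The 2 left out, Kcnj8 and Kcnmb1, each had a UMI in 3 cells. Kcna10 and Kcnn4, with a UMI in 10 cells each, were just inside. The set holds the channel subunits, their accessory proteins and 4 noncoding RNAs named after channel genes, of which Kcnq1ot1 was the most abundant.

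The 2 assays measured these genes in neurons of the dorsal raphe (DR) that had expressed Pet1 (Fev), a transcription factor of serotonergic (5-HT) neurons. All mice carried Pet1::Flpe+/-, so cells were labelled by a history of Pet1 expression. The 10X assay pooled On-Chip sorted cells of the full DR from run 1 (Pet1::Flpe+/-; hM3Dq+/+, mean postnatal day 65.5) and run 2 (En1::cre+/-;Pet1::Flpe+/-;RC::FrePe+/-, mean postnatal day 59). The other assay used 70 manually sorted single neurons with the RC::FrePe+/- reporter and a Cre driver, all +/-. Sert::cre neurons came from the dorsolateral (dlDR, n = 10), dorsomedial (dmDR, n = 9), ventromedial (vmDR, n = 8) and caudal (cDR, n = 6) DR at 63 to 90 days, those of the cDR at 63 days. P2ry1::cre neurons of the cDR (n = 10) were taken at 62 to 74 days. Npy2r::cre neurons came from the cDR (n = 10) and the rostral DR (rDR, n = 9) at 77 to 87 days, and Crh::cre neurons of the rDR (n = 8) at 83 to 119 days. Each driver marks a history of Cre expression and not the present level of the gene. No animal is named for any cell, and animal cannot be told apart from driver or age. Each group therefore stood as 1 sample, no test between groups was made, and intervals (95%, exact) cover counting error only. Age differed within all groups but the Sert::cre cDR. The Sert::cre dlDR, dmDR and vmDR groups each held cells of 63 and 90 days. Comparisons within an age were not made.

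Potassium channels set the resting potential of a neuron, end its action potentials and time the interval to the next one. Voltage-gated Kv subunits include the delayed rectifiers and the A-type channels, which inactivate quickly and delay firing. The Kv7 subunits carry the M current, SK channels give the calcium-dependent afterhyperpolarization that spaces the spikes of 5-HT neurons, and BK channels shorten the spike. Inward rectifiers include the GIRK channels, which are opened by G proteins below the somatodendritic 5-HT autoreceptor. The K2P channels carry leak currents. Silent Kv subunits, beta subunits and KChIPs bind pore subunits and alter their gating or traffic.

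The 2350 cells of the 10X table held 135543959 UMIs, with 12320 to 134079 and a median of 59646 per cell. Cells were divided by UMIs of 4 marker genes that are no members. Met cells had 2 or more UMIs of Met (103 cells), and Tph2-low cells had under 500 counts per 1000000 UMIs (CPM) of Tph2, the enzyme of 5-HT synthesis, and fewer than 2 Met UMIs (131 cells). Of the rest, 872 had 3 or more UMIs of Gad2, a GABA-synthesizing enzyme, and fewer of Slc17a8, the vesicular glutamate transporter VGLUT3. Another 674 had 3 or more of Slc17a8 and fewer of Gad2, 256 had 3 or more of both, and 314 were low in both. The summed CPM of 5 markers of 5-HT neurons was 5112 in Met cells and 1329 in Tph2-low cells, against 8672 to 9629 in the other 4 classes, and the Tph2 limit itself lowers the sum in Tph2-low cells. Median UMIs per cell were 45568 in Met cells, 27329 in Tph2-low cells and 51409.5 to 64277 in the other classes. The 20 measured markers of glia, vessels, blood and dopamine neurons summed to 65.4 CPM in Met cells with 7 at 0, to 74.8 CPM in Tph2-low cells with 9 at 0, and to 35.8 to 45.6 CPM elsewhere with 1 to 4 at 0. Oligodendrocyte markers made up 42.0 CPM of the sum in Met cells and 70.3 CPM in Tph2-low cells, against 28.3 to 33.2 CPM in the other 4 classes. Pericyte markers made up 20.7 CPM in Met cells, against 0 to 6.35 CPM in the other 5 classes. Microglia markers made up 4.58 CPM in Slc17a8 cells, against 0.209 to 3.02 CPM in the other 5 classes. Their part in the results below was not tested. Barcodes ended in 1 (869 cells) or 2 (1481 cells), and values within each barcode set are given for the leading members, since no label ties an ending to a run.

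Together the 86 members took up 1504 CPM of all UMIs, or 1280 CPM without Kcnq1ot1. A median of 28 members had a UMI in a cell. The summed level was 1879 CPM in Met cells, 2022 CPM in Tph2-low cells, 1326 CPM in Gad2 cells and 1637 CPM in Slc17a8 cells. The 10X assay counts 1 tag at the 3′ end of a transcript, so its CPM can be compared between genes without a length correction, apart from differences in how well a tag is captured. Kcnq1ot1, an imprinted antisense RNA of the Kcnq1 locus, came first at 224 CPM. The leading channel gene was Kcnc1 at 137 CPM, a Kv3 subunit of fast-closing delayed rectifiers. The A-type pore gene Kcnd2 was at 94.7 CPM and the M channel gene Kcnq3 at 80.4 CPM. Kcnma1, the BK pore, was at 77.0 CPM. Kcnab1, a Kv1 beta subunit, was at 51.9 CPM, Kcna2, a Kv1 pore, at 46.1 CPM and Kcnd3, the other abundant Kv4 pore, at 44.5 CPM. In all, 30 members were at 10 CPM or more and 21 below 1 CPM. The KCNE beta subunits, with 3 members, summed to 0.516 CPM. Over the 4 classes compared below, 37 members passed 2-fold in at least 1, and 14 had too few UMIs in each for a ratio.

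In Met cells 4 A-type or inward rectifier genes were at least 2-fold higher than in all other cells. These were Kcnd2, Kcnd3, Kcna4 and Kcnj12. They were higher in both assays, and the 250 bases before the RefSeq start of each (GRCm38.p6, plus strand, 5′ to 3′) are shown for that reason. Windows lie at chr6:21215096-21215345 for Kcnd2, chr2:107290339-107290588 for Kcna4, chr3:105451640-105451889 for Kcnd3 and chr11:61065554-61065803 for Kcnj12. Capitals mark CACCTG, the letters of an E-box that ZEB factors can bind.
Kcnd2: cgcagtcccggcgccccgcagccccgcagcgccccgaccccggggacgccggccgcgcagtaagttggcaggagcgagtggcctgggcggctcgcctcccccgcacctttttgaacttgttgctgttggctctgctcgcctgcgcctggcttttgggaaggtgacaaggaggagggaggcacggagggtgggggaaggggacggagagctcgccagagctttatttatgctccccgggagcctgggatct
Kcna4: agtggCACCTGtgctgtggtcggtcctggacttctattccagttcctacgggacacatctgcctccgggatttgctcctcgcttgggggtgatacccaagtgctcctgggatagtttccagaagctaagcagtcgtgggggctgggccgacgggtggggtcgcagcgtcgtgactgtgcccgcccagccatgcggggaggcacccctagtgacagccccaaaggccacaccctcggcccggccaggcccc
Kcnd3: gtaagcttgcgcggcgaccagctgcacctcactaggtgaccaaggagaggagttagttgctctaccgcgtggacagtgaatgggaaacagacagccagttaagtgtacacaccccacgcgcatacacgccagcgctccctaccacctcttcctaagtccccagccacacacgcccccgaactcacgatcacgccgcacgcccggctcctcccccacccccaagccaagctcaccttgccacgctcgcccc
Kcnj12: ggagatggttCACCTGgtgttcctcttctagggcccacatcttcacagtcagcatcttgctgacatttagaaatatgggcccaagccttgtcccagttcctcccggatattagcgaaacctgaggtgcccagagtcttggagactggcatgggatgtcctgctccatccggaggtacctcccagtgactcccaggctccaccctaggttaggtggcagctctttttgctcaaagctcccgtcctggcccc
The Kcna4 window held the letters once, starting 245 bases before the start, and the Kcnj12 window once, 240 bases before. Neither Kv4 window held them on either strand. They stood on at least 1 strand in 5657 of 32851 windows of the same length (17.2%) and in 20 of 84 windows of 60 members (23.8%), so a match is a description only. G and C made up 68.8% of the Kcnd2 window, 65.2% for Kcna4, 62.8% for Kcnd3 and 56.0% for Kcnj12, against a median of 52.4% over all windows. In the GENCODE annotation of the files' build (mm10), Kcnd2 spans chr6:21215503-21729805, Kcna4 chr2:107290639-107298502, Kcnd3 chr3:105452330-105674002 and Kcnj12 chr11:61022564-61071131, all on the plus strand. The RefSeq start of Kcnj12 thus lies inside the annotated gene. Exons of Kcnd3 overlap the opposite-strand Kcnd3os.

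Met cells are first compared with the other 2247 cells. A member entered where its level over all cells predicted 20 or more UMIs in the class, which 40 members did. Of these, 4 (10.0%) were 2-fold or more higher, against 219 of 10257 genes (2.14%). Lower by 2-fold or more were 13 (32.5%), against 765 genes (7.46%). The median log2 ratio was -0.32 over the 40 members and 0.05 over all genes.

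Among pore subunits of A-type channels, Kcnd2 had UMIs in 103 of 103 Met cells. The lowest Met cell stood at 106 CPM, the median at 401 CPM and the highest at 842 CPM. In the other cells 4 of 2247 passed the Met median, and the highest, a Slc17a8 cell, reached 571 CPM. The groups overlapped only in their tails. From summed UMIs the level was 418 CPM (400 to 437) in Met cells and 82.8 CPM in the others, a log2 ratio of 2.34 (2.27 to 2.41), with 2.54 and 2.25 in the 2 barcode sets.

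Kcna4, the A-type pore of the Kv1 family, ran from 0 to 358 CPM over Met cells with a median of 135 CPM, and 102 cells had a UMI. Only 13 of the other 2247 cells passed that median. The summed level was 144 CPM (134 to 155) against 12.9 CPM, which is 11.2-fold higher (log2 3.48, 3.35 to 3.61; sets 3.68 and 3.39). Kcnd3, the sister gene of Kcnd2, ran from 0 to 287 CPM with a median of 98.3 CPM. It was at 105 CPM against 42.3 CPM (log2 1.31, 1.17 to 1.44; sets 1.54 and 1.19), and 164 other cells passed the Met median, so overlap was wider. Kcnj12, a strong inward rectifier of the Kir2 family, ran from 0 to 108 CPM with a median of 17.6 CPM, close to 1 UMI in a cell of this depth. It stood at 20.5 CPM against 8.80 CPM (log2 1.22, 0.90 to 1.52; sets 1.47 and 1.09). When the cells with a single Met UMI were added to the class, these 4 log2 ratios lay between 1.04 and 3.14, and when each cell was thinned to 20000 UMIs, between 1.46 and 3.46.

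**Figure D1:**
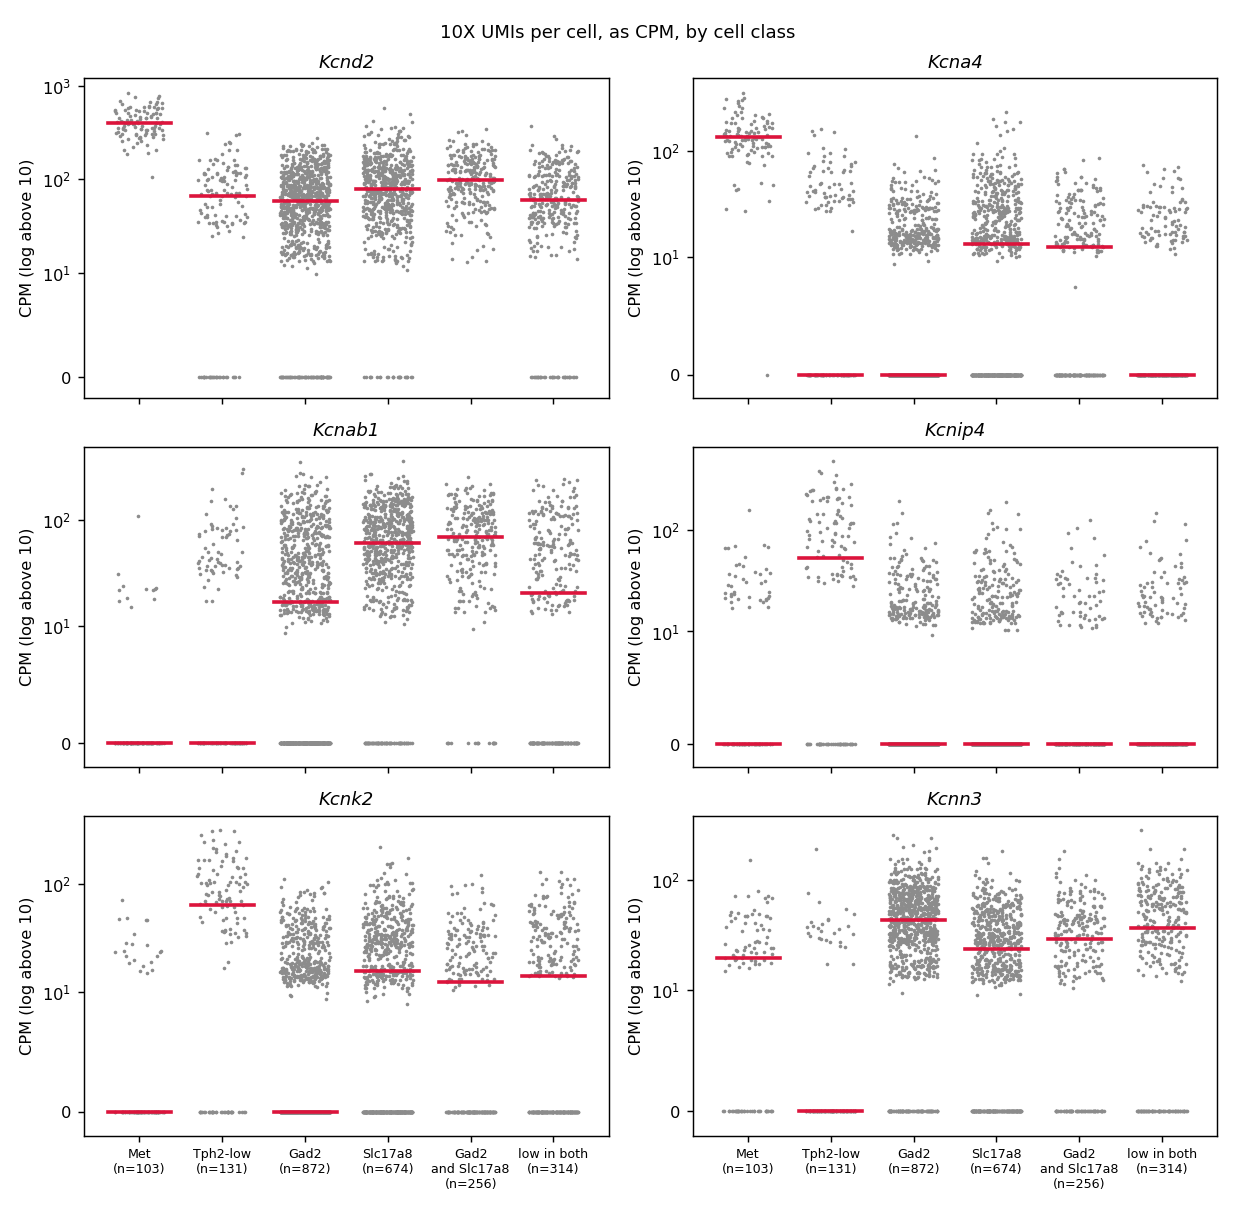
CPM of 6 members in each 10X cell, on an axis that is logarithmic above 10 CPM, by class, with n cells under each. Grey points are cells and red bars medians. Kcnd2 and Kcna4 are highest in Met cells (medians 401 and 135 CPM), Kcnab1 has a median of 0 there, and Kcnip4 and Kcnk2 are highest in Tph2-low cells (medians 52.6 and 63.9 CPM), where the Kcnn3 median is 0.

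Of the accessory subunits, Kcnab1, Kcnip1 and Kcnip2 were 2-fold or more lower in Met cells. Kcnab1, the beta subunit that lends inactivation to Kv1 channels, had UMIs in 12 of 103 Met cells, and its highest cell was at 109 CPM. The median was 0 there, 59.9 CPM in Slc17a8 cells and 68.6 CPM in cells with both markers. In sum Kcnab1 was at 3.97 CPM (2.39 to 6.20) against 53.6 CPM, a log2 ratio of -3.76 (-4.49 to -3.11; sets -4.01 and -3.65). KChIPs are calcium sensors that bind Kv4 pores. Of them, Kcnip1 (1.04 against 5.59 CPM, log2 -2.42) and Kcnip2 (2.09 against 6.29 CPM, -1.59) were lower, while Kcnip4 was at 14.4 CPM and a log2 ratio of 0.75. The KChIPs thus did not go with Kcnd2 and Kcnd3 as a group.

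Among delayed rectifiers, Kcna5 had 3 UMIs in all Met cells (log2 -3.48, -5.76 to -1.93) and Kcnb2 stood at 14.2 against 40.1 CPM (-1.50). Kcnc2, a Kv3 pore, was at 2.72 against 20.3 CPM (-2.90), with UMIs in 7 of 103 cells. Silent subunits form no channel alone and pair with Kv2. Of the 9, 2 had enough UMIs for a ratio in Met cells, and both were lower. Kcnf1 had 4 UMIs (0.836 against 12.6 CPM, log2 -3.92, -5.80 to -2.56) and Kcns1 3 UMIs (-2.84, -5.12 to -1.28). Kcnh7, of the ERG family, was at 6.89 against 29.1 CPM (-2.08), and Kcnq5, an M channel subunit, at 1.04 against 5.25 CPM (-2.33). Kcnq3, also an M channel subunit, was within 2-fold, with a log2 ratio of 0.63.

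Of the 4 GIRK genes, Kcnj3 and Kcnj6 were 2-fold or more lower in Met cells. Kcnj3 had UMIs in 28 of 103 cells and stood at 8.36 (5.97 to 11.4) against 26.5 CPM (log2 -1.67, -2.15 to -1.22). Kcnj6 stood at 6.06 against 18.7 CPM (-1.63, -2.21 to -1.10). Kcnj9 was at 16.5 against 26.4 CPM (-0.68), and in the barcode sets at -0.26 and -0.97. Kcnj5, the fourth GIRK gene, had no UMI in Met cells and 0.306 CPM in the others, too few for a ratio. The SK genes Kcnn2 (-0.73) and Kcnn3 (-0.72) were within 2-fold. Among K2P genes, Kcnk2, a mechanosensitive leak channel, was at 6.06 against 18.1 CPM (-1.58), and the acid-sensitive Kcnk3 was even between the classes (0.06). With the single-UMI cells counted as Met cells, 8 members in place of 13 were lower: Kcnb2, Kcnk2, Kcnj3, Kcnip1 and Kcnip2 came within 2-fold.

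Kcnmb2, a BK beta subunit that inactivates the channel, did not reach the UMI minimum and so is given as a level only. It stood at 16.1 CPM (12.7 to 20.1) in Met cells and between 0.266 and 1.94 CPM in the other 5 classes. It had a UMI in 46.6% of Met cells and in 11.0% of Slc17a8 cells, or 28.7% and 4.79% after thinning, and its pore Kcnma1 was at 68.3 CPM against 77.3 CPM. The share of free RNA behind such low counts was not measured.

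Levels by Met UMIs separated the cells without Met from those with 2 or more. Kcnd2 was at 82.0 CPM in 2211 cells with no Met UMI, 134 CPM in 36 cells with 1, 389 CPM in 32 cells with 2 to 4, 441 CPM in 40 cells with 5 to 9 and 418 CPM in 31 cells with 10 to 16. Kcnab1 stood at 53.7, 50.0, 7.32, 2.18 and 3.15 CPM in the same bins, and Kcnmb2 at 1.07, 2.86, 8.05, 17.5 and 21.4 CPM. For Kcnd2 and Kcnab1 the widest step lay between 1 and 2 or more UMIs, and for these genes cells with a single Met UMI stood nearer to those without.

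**Figure D2:**
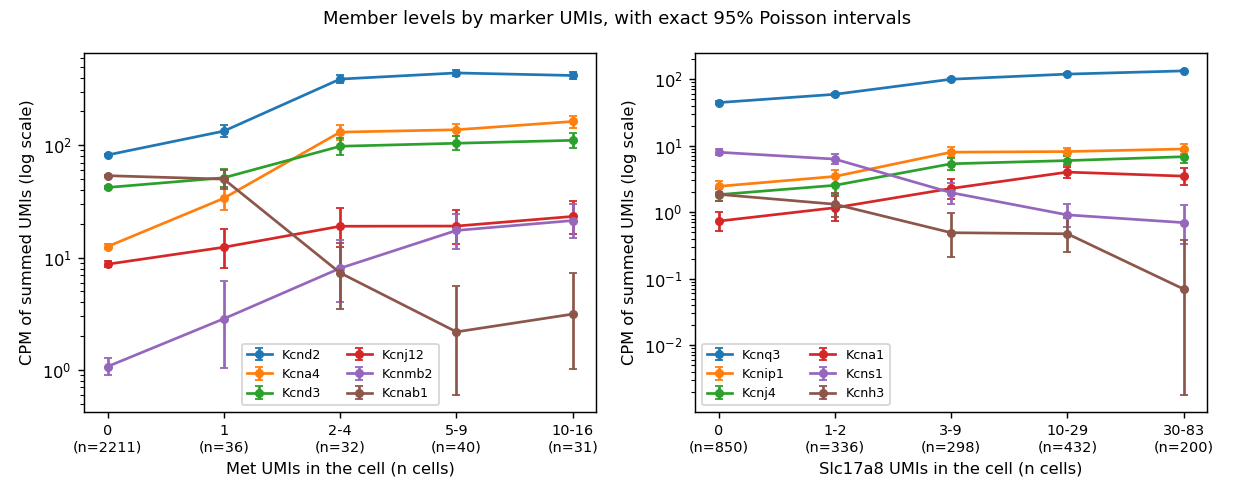
CPM of summed UMIs (log axis) of 6 members by Met UMIs per cell over all 10X cells (left) and of 6 members by Slc17a8 UMIs in cells other than Met and Tph2-low cells (right), with n cells per bin and exact 95% Poisson bars. Kcnd2 goes from 82.0 to 418 CPM and Kcnab1 from 53.7 to 3.15 CPM between the outer Met bins, and Kcnq3 goes from 44.4 to 133 CPM between the outer Slc17a8 bins.

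The manually sorted P2ry1-cre cDR cells answer the same question in neurons chosen by driver and site. Met had a median of 86.8 CPM in this group and of 0 in each of the other 7. These full-length libraries held 756872 to 7664103 reads per cell on genes, and CPM of 1 gene is compared between groups, not between genes. Of the 86 members 83 were in the table and 43 had a mean of 5 CPM or more. Kcnq1ot1, the first member of the 10X table at 224 CPM, was listed at 0 in all 70 manually sorted cells, and the reason was not tested. None of the 43 entered only through the P2ry1-cre cDR cells. P2ry1-cre cDR cells had fewer genes with reads (median 7947, against medians of 8809 to 9780.5) and fewer members with reads (23 against 34 to 38.5), although their median of 5737032 reads was the highest. The summed markers of other cell types had a median of 0.335 CPM with 20 of 24 at 0, against medians of 18.5 to 101 CPM with 7 to 17 at 0 in the other groups. The part of these differences in the lower values below was not tested.

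On the scale of log2(CPM + 1), the median over P2ry1-cre cDR cells was 1 or more above that of the other 60 cells for 4 of 43 members (9.30%), against 6.8% of all 10229 genes tested. It was 1 or more below for 17 members (39.5%), against 31.2% of all genes. Neither share was far from that of genes in general. The median difference was -0.29 over the members and -0.23 over all genes. The 4 higher members were again Kcna4, Kcnj12, Kcnd2 and Kcnd3.

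Kcnd2 ran from 9.35 to 479 CPM over the 10 P2ry1-cre cDR cells with a median of 144 CPM. The 6 Sert-cre cDR cells of the same subdomain ran from 0 to 59.8 CPM with a median of 39.0 CPM, and 8 of 10 P2ry1-cre cDR cells lay above them all. Medians of the other groups were 10.8 CPM in Sert-cre dlDR to 79.2 CPM in Npy2r-cre cDR, and the difference was 1.67. Kcna4 ran from 0 to 174 CPM with a median of 50.8 CPM, against group medians of 0 to 11.1 CPM (5.70). Of the P2ry1-cre cDR cells 7 were above every Sert-cre cDR cell for Kcna4. Kcnd3 ran from 4.75 to 233 CPM with a median of 130 CPM against 19.1 to 79.6 CPM (1.49). For this gene 5 cells were above and 3 below all Sert-cre cDR cells, so these cells were spread around the others. Kcnj12 had reads in 6 of 10 cells, up to 139 CPM, with a median of 37.3 CPM against 0 to 22.1 CPM (5.16). It was at 0 in 5 of 6 Sert-cre cDR cells. The differences of Kcna4 and Kcnj12 are large partly by construction, since medians of 0 elsewhere leave the size to the added 1. Neither was higher in P2ry1-cre cDR cells alone. Kcna4 was also higher by 1 or more in Sert-cre vmDR (1.61), Sert-cre cDR (1.17), Npy2r-cre cDR (3.57) and Crh-cre rDR (2.73) cells. Kcnj12 was so in Sert-cre vmDR (4.24) and Crh-cre rDR (3.94) cells. Kcnmb2, under the CPM minimum, had reads in 5 of 10 P2ry1-cre cDR cells and in 3 of the other 60.

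**Figure D3:**
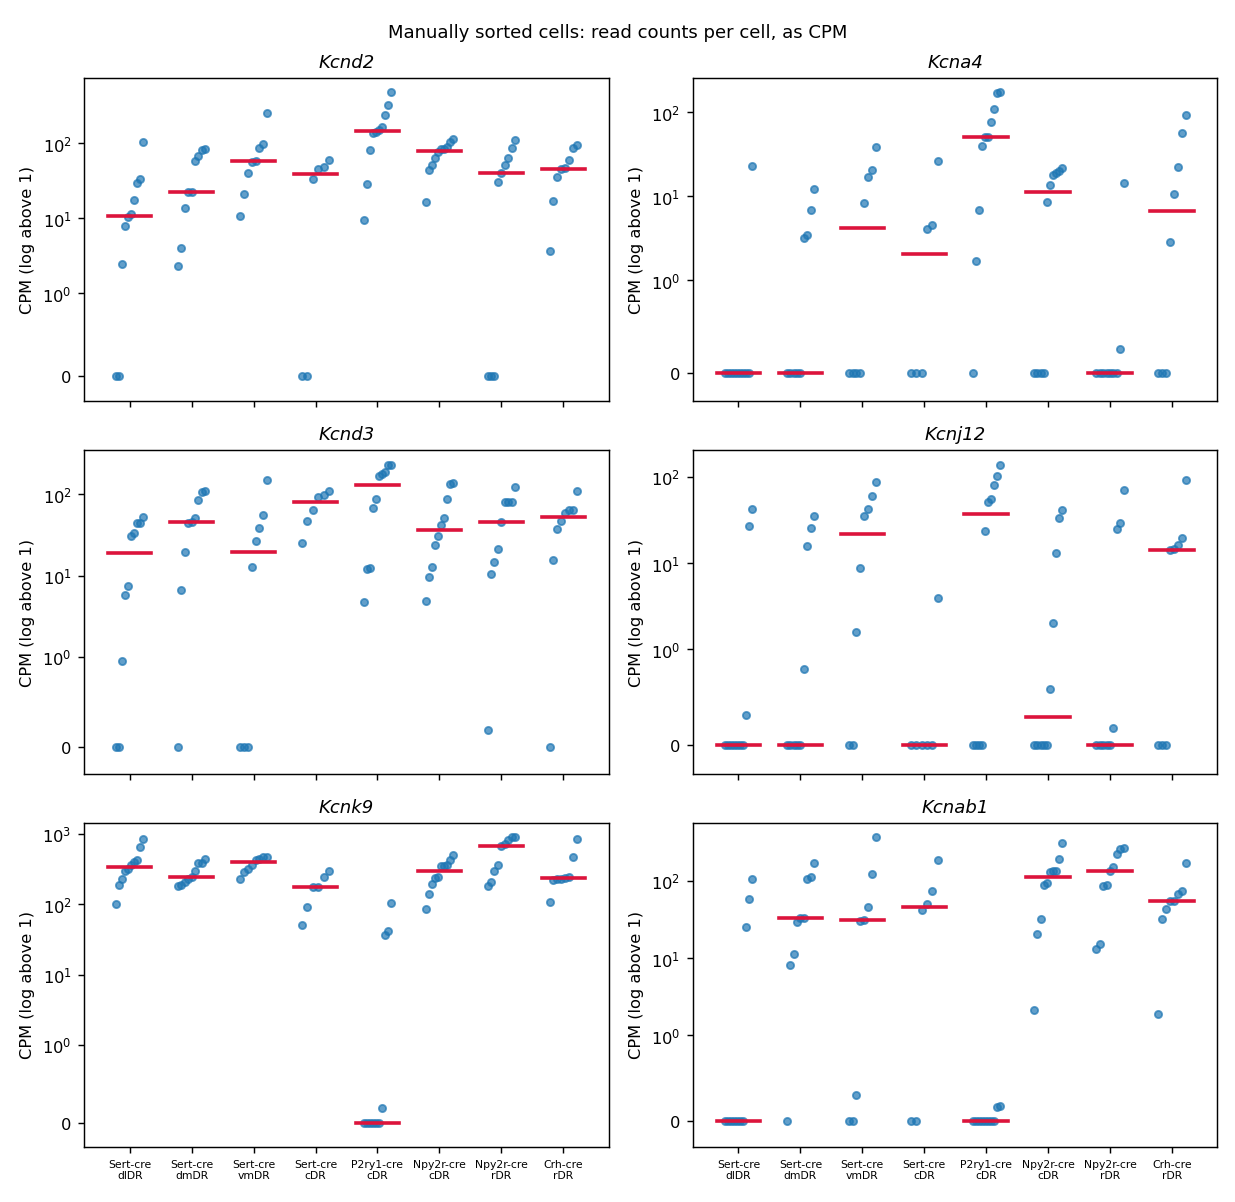
CPM of 6 members in each manually sorted cell, on an axis that is logarithmic above 1 CPM, by group. Points are cells and red bars medians. Kcnd2 and Kcna4 have their highest medians in P2ry1-cre cDR cells (144 and 50.8 CPM), while Kcnk9 has a median of 0 there and of 175 to 663 CPM in the other groups.

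The P2ry1-cre cDR median was 0 for Kcnk9, Kcnab1, Kcnh7, Kcnj3, Kcnb2, Kcnj6, Kcnk4, Kcnc2 and Kcnk10. Their differences are thus set by the level in the other cells and the added 1, and so is their order. Kcnk9, an acid-sensitive TASK leak channel, had the largest (-8.22). Reads were found in 4 of 10 of these cells, with a highest value of 103 CPM and a median of 0. Each of the other 60 cells had reads, from 50.9 to 892 CPM, and 9 of the P2ry1-cre cDR cells lay below the lowest of them. Group medians ran from 175 CPM in Sert-cre cDR to 663 CPM in Npy2r-cre rDR. In the 10X table Kcnk9 was at 1.63 CPM, with a UMI in 203 cells, none of them Met cells, whose count of 0 allows up to 0.627 CPM (3 UMIs). No other annotated gene shares its exons at chr15:72501089-72546340, and the reason for its different standing in the 2 assays was not tested.

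Kcnab1 had reads in 2 of 10 P2ry1-cre cDR cells, none above 0.171 CPM (-5.51). Its median was also 0 in Sert-cre dlDR cells and was 135 CPM in Npy2r-cre rDR and 112 CPM in Npy2r-cre cDR cells. The ERG gene Kcnh7 had reads in 1 of 10 cells (11.3 CPM, -4.50). Of the GIRK genes, 3 were lower by 1 or more here, Kcnj3 with reads in 2 of 10 cells (-4.11), Kcnj6 up to 4.00 CPM (-3.68) and Kcnj9 with a median of 0.870 CPM (-3.42). Sert-cre cDR and Npy2r-cre cDR cells had Kcnj6 medians of 0.133 and 0.126 CPM, so a low Kcnj6 was shared by the caudal groups. Of the SK genes, Kcnn3 had a median of 10.2 CPM against 11.4 to 51.1 CPM (-1.47) and Kcnn2 of 4.88 CPM against 3.77 to 26.6 CPM (-1.57). The remaining lower members were the Kv1 genes Kcna3 (-2.74) and Kcna6 (-2.96), the Kv3 genes Kcnc4 (-4.08) and Kcnc2 (-1.20), the Kv2 gene Kcnb2 (-3.80), the sodium-activated Kcnt1 (-3.54) and the K2P genes Kcnk1 (-2.42), Kcnk4 (-2.62) and Kcnk10 (-1.02). With a pseudocount of 10, 6 of the 17, namely Kcnk1, Kcnn3, Kcnn2, Kcnc2, Kcnk10 and Kcnk4, came within 1. Many of the 17 were also lower by 1 or more in another group. In Sert-cre dlDR these were Kcna6, Kcnab1, Kcnb2, Kcnc2, Kcnc4, Kcnk4, Kcnn2 and Kcnt1. In Sert-cre cDR they were Kcna3, Kcnh7, Kcnj6 and Kcnn2. Kcnc4 was so in Sert-cre dmDR, Kcnj6 in Npy2r-cre cDR, Kcnj9 in Crh-cre rDR and Kcnn3 in Npy2r-cre rDR. For Kcna3, 4 of 10 P2ry1-cre cDR cells lay above every Sert-cre cDR cell.

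No member had P2ry1-cre cDR cells all above or all below the Sert-cre cDR cells, against 0.303% and 0.763% of all genes. In both assays 35 members could be compared. Higher in both were 4, against 1.48% of 9333 genes. Lower in both were 6, Kcnab1, Kcnb2, Kcnc2, Kcnh7, Kcnj3 and Kcnj6, against 4.68% of genes. These 6 were among 12 members lower in Met cells and 14 lower in P2ry1-cre cDR cells that both assays measured. The rest of the 12 were Kcnf1, Kcnip1, Kcnip2, Kcnq5, Kcna5 and Kcns1. Their median log2(CPM + 1) in the other 60 manual cells was 0 to 0.397. A fall of 1 was thus not possible for them, and the manual cells cannot show whether they were lower. No member went past the limit in opposite directions.

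**Figure D4:**
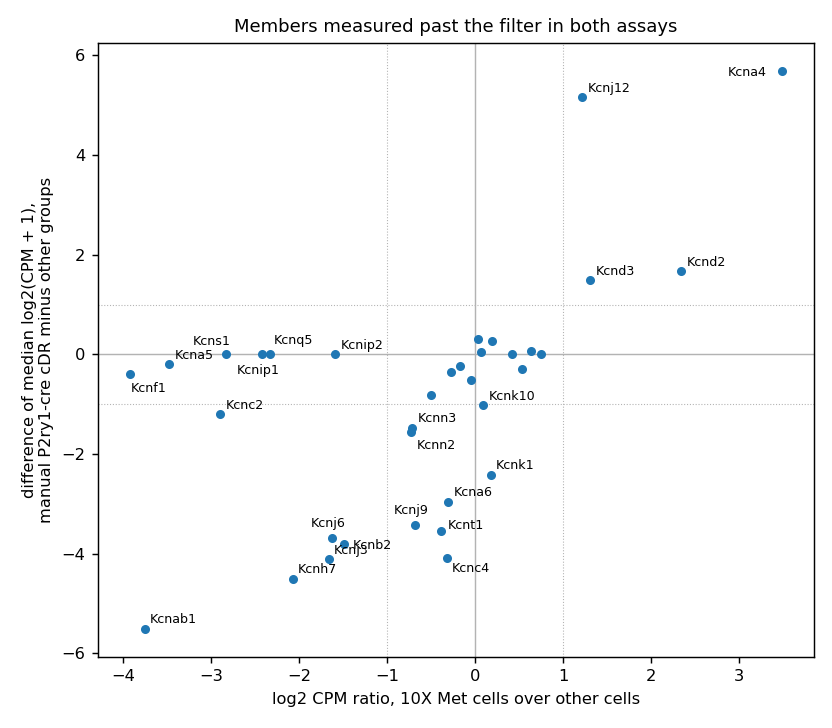
Members past the low-level filter in both assays (n = 35). The x axis is the log2 CPM ratio of 10X Met cells over other cells and the y axis the difference in median log2(CPM + 1) of manual P2ry1-cre cDR cells minus the other groups, with dotted lines at 1 and -1. Kcna4, Kcnj12, Kcnd2 and Kcnd3 stand at the upper right and Kcnab1 at the lower left.

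In Tph2-low cells, of 37 tested members, 7 (18.9%) were 2-fold or more higher than in the other 2219 cells, against 5.12% of 9792 genes, and 2 (5.41%) were lower, against 4.1%. The median log2 ratio was 0.35 over members and 0.16 over all genes. Kcnip1 passed the UMI minimum only through this class. Kcnk2, Kcnip1 and Kcnj12 were past 2-fold both here and in Met cells, in opposite directions.

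Kcnip4, a KChIP that alters the inactivation of Kv4 channels, led the class. It ran from 0 to 473 CPM over 131 cells with a median of 52.6 CPM, and 89 cells had a UMI. Of the other cells 62 of 2219 passed that median. Summed levels were 79.3 CPM (70.6 to 88.9) and 6.78 CPM, which is 11.7-fold higher (log2 3.55, 3.35 to 3.74; sets 3.87 and 3.47). Its pore partners did not go with it, Kcnd2 being at 73.7 CPM (log2 -0.37) and Kcnd3 at 33.8 CPM (-0.41). Exons of Kcnip4 (chr5:48389502-49524907, minus strand) overlap the opposite-strand genes Gm20700 and 5730480H06Rik.

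Among leak channels, Kcnk2 ran from 0 to 318 CPM with a median of 63.9 CPM and stood at 70.8 CPM against 16.1 CPM (2.14, 1.95 to 2.32; sets 2.10 and 2.10). Kcnk1 stood at 65.8 against 31.4 CPM (1.07; sets 1.01 and 1.11). Among Kv genes, Kcna2 ran from 0 to 640 CPM with a median of 84.1 CPM and stood at 115 against 44.1 CPM (1.38; sets 1.67 and 1.17). Kcnip1 was at 16.2 against 5.12 CPM (1.66) and Kcnt1 at 37.8 against 17.9 CPM (1.08; sets 0.97 and 1.15). Kcnk1 and Kcnt1 stood so near to 2-fold that a Tph2 limit of 1000 CPM took both below it.

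Kcnn3, the SK gene with the highest level over all cells (37.9 CPM), was the lowest tested member in Tph2-low cells. It had UMIs in 28 of 131 cells and a highest cell of 192 CPM, and stood at 9.32 CPM (6.49 to 13.0) against 38.7 CPM (-2.05, -2.58 to -1.58; sets -2.77 and -1.60). In Gad2 cells 90.1% had a Kcnn3 UMI. After thinning the shares were 15.8% and 61.8%. Kcnj12 was at 4.53 against 9.35 CPM from 17 UMIs (-1.05, -1.83 to -0.36), and its barcode sets gave -0.54 and -1.50. Named members below the UMI minimum here are given as levels, Kcnh5 at 28.8 CPM (0 to 1.56 CPM in the other 5 classes), Kcnh8 at 20.2 CPM (0.836 to 3.65 CPM) and Kcna1 at 13.3 CPM (0.751 to 3.79 CPM). Kcnh5 and Kcnh8 belong to the EAG and ELK families of voltage-gated channels, and Kcna1 is an axonal Kv1 pore.

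By level of Tph2, Kcnip4 stood at 81.5 CPM in 57 cells under 100 CPM of Tph2, 77.8 CPM in 74 cells at 100 to 500, 24.8 CPM in 65 cells at 500 to 1000, 8.11 CPM in 411 cells at 1000 to 2000, 5.81 CPM in 1350 cells at 2000 to 4000 and 5.45 CPM in 290 cells above. Kcnn3 stood at 4.46, 12.8, 27.3, 36.8, 39.9 and 40.6 CPM. Median UMIs per cell also differed along this order, from 25831 in the first bin to 69625.5 in the last. The part of depth in these levels was not tested beyond the thinned ratios, in which the 6 higher members named here were still past 2-fold.

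Gad2 and Slc17a8 cells, the largest classes, differed in genes of several families, M channel, Kir, KChIP and silent Kv genes among them. In Gad2 cells 3 of 72 tested members (4.17%) were higher, against 1.91% of 13843 genes, and 12 (16.7%) were lower, against 3.91%. The median log2 ratio was -0.20 over members and -0.02 over all genes, and Kcnh4 entered only through this class. In Slc17a8 cells 5 of 71 members (7.04%) were higher, against 1.55% of 13464 genes, and 5 (7.04%) were lower, against 3.33%, with medians of 0.00 and -0.03. Each class stands in the other's comparison, so these ratios are not independent.

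Kcnq3, an M channel pore, had the most UMIs of these members. It ran from 0 to 418 CPM with a median of 112 CPM in Slc17a8 cells and from 0 to 272 CPM with a median of 34.2 CPM in Gad2 cells. Summed levels were 129 CPM (125 to 132) and 42.2 CPM (40.5 to 44.0), with cells of both markers between them at 87.5 CPM and Met cells at 122 CPM. The log2 ratio against all other cells was 1.13 (1.07 to 1.18; sets 1.22 and 1.08) in Slc17a8 cells and -1.32 (-1.38 to -1.25; sets -1.55 and -1.24) in Gad2 cells. By Slc17a8 UMIs, Kcnq3 stood at 44.4 CPM in 850 cells with none, 59.1 CPM with 1 or 2, 99.7 CPM with 3 to 9, 119 CPM with 10 to 29 and 133 CPM in 200 cells with 30 to 83.

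Of 7 silent subunits tested in Gad2 cells, 2 were higher, Kcns1 and Kcng4, and 1 was lower, Kcnv1. Kcns1 was at 7.59 CPM (6.86 to 8.36) in Gad2 cells and 0.719 CPM (0.485 to 1.03) in Slc17a8 cells, with ratios of 1.75 and -3.05. It was also at 7.12 CPM in cells low in both markers. Across Gad2 UMIs it stood at 1.74, 5.18, 6.52, 6.57 and 4.05 CPM, and across Slc17a8 UMIs at 7.96, 6.28, 1.96, 0.909 and 0.696 CPM. Kcng4 was at 5.88 CPM in Gad2 cells (1.09; sets 0.86 and 1.26) and Kcns3 at 0.456 CPM in Slc17a8 cells (-2.23). Kcnv1 was lower in Gad2 cells (0.338 against 0.936 CPM, -1.47). Of the EAG and ELK genes, Kcnh3 was at 1.86 CPM in Gad2 and 0.240 CPM in Slc17a8 cells (1.86 and -2.54). Kcnh1 was at 0.336 CPM in Slc17a8 cells (-2.02), and Kcnh8 and Kcnh5 were at 0.864 CPM each in Gad2 cells (-2.10 and -1.51). Tph2-low cells, which stand far above the other classes for Kcnh5 and Kcnh8, were among the other cells in those ratios. The Gad2 ratios of Kcnh5 and Kcnh8 are thus no measure of a difference from Slc17a8 cells.

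On the Slc17a8 side were Kcnip1, at 9.35 CPM (8.45 to 10.3) against 1.61 CPM (1.29 to 1.99) in Gad2 cells (1.34 and -2.29), and Kcnj4, a Kir2 inward rectifier, at 6.71 against 1.90 CPM (1.46 and -1.39). Kcna1 stood at 3.79 against 0.751 CPM (1.16 and -2.16) and Kcnk13, a K2P gene, at 2.42 against 0.845 CPM (1.26 and -1.12). Another KChIP, Kcnip3, had the other direction and was lower in Slc17a8 cells (0.600 against 1.40 CPM, -1.22). Kcna4, Kcnj12, Kcnmb2 and Kcnab3 were lower in Gad2 cells, with ratios of -1.54, -1.28, -2.16 and -1.35. Met cells, which stand apart for Kcna4, Kcnj12 and Kcnmb2, were among the other cells in those ratios. Tph2-low cells, where Kcna1 was highest by class, were likewise among the other cells in the Kcna1 ratios. Most of these levels are near or below 10 CPM, less than 1 UMI in a cell of median depth.

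**Figure D5:**
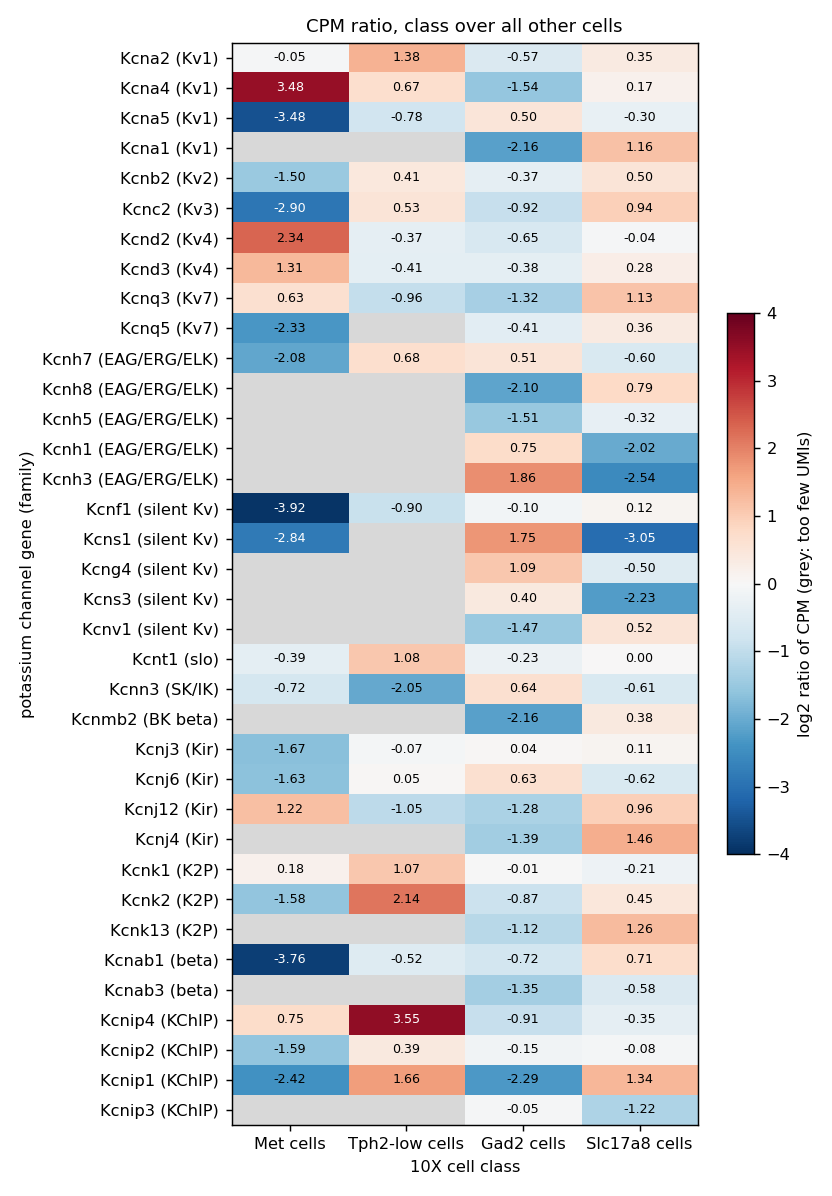
Log2 CPM ratio of each class over all other 10X cells for 36 of the 37 members that passed 2-fold in at least 1 class, with the channel family in brackets and grey where too few UMIs were predicted. Red is higher and blue lower. The Met column holds both 3.48 for Kcna4 and -3.92 for Kcnf1, and Kcnip4 stands out at 3.55 in Tph2-low cells.

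The subdomain groups of manually sorted neurons differed in these genes as well. Each of the following counts sets 1 group against the other 7 and so shares cells with the rest. Sert-cre dlDR cells had 17 of 43 members lower (39.5%), against 12.7% of all genes, and 4 higher, against 9.46%. Sert-cre vmDR cells had 17 higher, against 14.7%, and 1 lower, Kcnd3, against 7.24%. The counts were 8 higher and 2 lower in Sert-cre dmDR (12.9% and 6.14% of all genes), 9 and 5 in Sert-cre cDR (16.7% and 13.0%), 11 and 3 in Npy2r-cre cDR (9.16% and 12.1%), 11 and 3 in Npy2r-cre rDR (9.31% and 13.5%) and 12 and 2 in Crh-cre rDR (18.6% and 3.52%). Some of the higher members would fall short of the CPM minimum without the cells of the group itself, and their differences are given as a description. These were Kcns1 in Sert-cre dmDR and in Crh-cre rDR, Kcna5 in Sert-cre vmDR, Kcnq5 in Npy2r-cre cDR and Kcnd1 in Npy2r-cre rDR. With a pseudocount of 10, 9 members were lower in Sert-cre dlDR and 5 higher in Sert-cre vmDR.

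In Sert-cre dlDR cells, where Gad2 had a median of 51.4 CPM and Slc17a8 of 0, Kcnq3 ran from 0 to 54.5 CPM with a median of 1.60 CPM (difference -3.60), while the vmDR cells ran from 0 to 152 CPM with a median of 53.5 CPM (1.03). Low Kcnq3 did not go with Gad2 over the groups, since the dmDR and Crh-cre rDR cells had higher Gad2 medians (98.0 and 86.1 CPM) and Kcnq3 medians of 30.5 and 31.7 CPM (0.20 and 0.31). Kcnab1 had reads in 3 of 10 dlDR cells (-5.26), and Kcnd2 a median of 10.8 CPM (-2.29). Kcnj3 and Kcnj6 were among the 4 higher in dlDR, at medians of 29.4 and 15.8 CPM (2.46 and 2.00). Neither was higher in dlDR alone. Kcnj6 was also higher in the dmDR, vmDR, Npy2r-cre rDR and Crh-cre rDR groups, with medians of 11.9 to 18.4 CPM, and Kcnj3 in Sert-cre cDR and Npy2r-cre rDR, with medians of 25.1 and 24.9 CPM. In vmDR cells, where Slc17a8 had its highest median (287 CPM), Kcna2 ran from 26.6 to 120 CPM with a median of 50.7 CPM (1.30). Kcnip1 had medians of 10.5 CPM in vmDR, 17.6 CPM in Sert-cre cDR and 16.5 CPM in Npy2r-cre cDR cells and of 0 in the other 5 groups. Kcns1 had reads in 7 of 9 dmDR cells (median 11.5 CPM, 3.64) and in none of the vmDR, Sert-cre cDR and P2ry1-cre cDR cells. Without the dmDR cells its mean over the other groups was under the CPM minimum. Ranges of single cells overlapped between most groups for these genes.

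Among 7 measured partner genes that are no Kcn genes, the Kv4 partners Dpp6 and Dpp10 were within 2-fold in all 4 of the 10X classes compared (log2 -0.32 to 0.23 and -0.56 to 0.81). Lrrc55, a BK gamma subunit, passed 2-fold in Met cells (-2.43), and Lgi1, a secreted Kv1 partner, in Tph2-low cells (1.20), where Abcc8 had too few UMIs for a ratio. The other ratios of these genes were within 2-fold. In P2ry1-cre cDR cells Dpp10 had a median of 98.5 CPM against 15.1 to 84.3 CPM in the other groups (difference 0.91). Abcc8, the sulfonylurea receptor of ATP-sensitive channels, had a median of 2.17 CPM against 0 to 8.02 CPM (1.21).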

How the data were processed

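RNA was measured in single *Pet1* neurons by 2 assays. Per the labels, 10X libraries used the Chromium Single Cell 3′ v3 kit, and manually sorted cells SMART-Seq v4 with Nextera XT. The submitters' processing notes name Cell Ranger 3.0.2, STAR 2.5.4, R 3.5.3 and mm10. The authors deposited UMI counts per gene and cell for 10X, after filtering out rarely detected genes as well as cells that expressed few genes or little Fev, were rich in glial or mitochondrial or poor in ribosomal transcripts, or had outlying totals, and read counts for manual cells. The strand setting of the manual counting is not given in the sources used here, so exons shared with an antisense gene (31 members share exons with another gene) cannot be told apart.

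The 10X table was 1 pooled sample, and the manual labels name no animal, so cells were not replicates and no test was made. Counts were scaled to CPM. In 10X, UMIs were summed per class, with exact 95% Poisson intervals for levels and conditional binomial intervals for ratios, a floor of 3 counts, a 2-fold limit and a minimum of 20 predicted UMIs. In manual cells, medians of log2(CPM + 1) were compared, with a limit of 1 and a minimum mean of 5 CPM. Named members were the 10 most abundant, those past a limit, and fixed GIRK, SK, TASK, M channel and A-type lists. A few members that the rule names are not reported here. The ratio and median scripts were tested on simulated data. Scrublet (expected rate 5%) called 10 doublets, which were kept and left out in an alternative. Thinning left out 53 cells. Other alternatives changed the barcode set, class limits, comparison cells, totals, filter, summary and pseudocount. Python 3.11.15, numpy 2.4.6, scipy 1.17.1, pandas 2.3.3, scanpy 1.11.5 and matplotlib 3.10.9 were used. Promoter windows are from RefSeq (GRCm38.p6), positions from GENCODE. Members, lists and limits were chosen with earlier results of these data known.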

Additional observations from a re-analysis of the deposited data

Results flagged for a closer look

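Dixon's criterion was applied on the log2(CPM + 1) scale to 42 groups of values (21 members in the P2ry1-cre cDR and Sert-cre cDR groups). In 4 of them 1 cell lay far from the others. Chance meets the criterion in about 5% of groups of normally distributed values. Several groups held mostly cells at 0, so that rate does not hold for them. Kcnc2 and Kcnk4 were at 0 in all P2ry1-cre cDR cells and could not be flagged there. Kcnh7 stood at 11.3 CPM in 1 of 10 P2ry1-cre cDR cells and at 0 in the rest. Kcnj3 reached 65.5 CPM in 1 P2ry1-cre cDR cell, with a median of 0. Kcnk10 reached 84.3 CPM in 1 P2ry1-cre cDR cell, also with a median of 0. Kcnj12 stood at 3.99 CPM in 1 of 6 Sert-cre cDR cells and at 0 in the other 5. The group medians of these genes do not rest on those cells.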

How the results depend on the processing

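Single values were recomputed only for members past the limit in a 10X class or in P2ry1-cre cDR cells. None of these changed direction under any alternative tried. Values within the limits were not recomputed, so nothing is known of their direction. Of 103 recomputed counts over 13 results, 86 stayed within 1.5 times the count reported. Of 517 recomputed values of single members over 72 results, 418 stayed within a set limit. For 10X ratios the limit was the counting interval. For manual differences it was the standard deviation over P2ry1-cre cDR cells. Without the minimum of predicted UMIs, 14 members were higher and 23 lower in Met cells, 24 higher and 9 lower in Tph2-low cells, 6 higher in Gad2 cells and 9 lower in Slc17a8 cells, with more members tested. A minimum of 1 Met UMI gave 8 lower in Met cells. A Tph2 limit of 1000 CPM gave 4 higher in Tph2-low cells, and against Gad2 and Slc17a8 cells together 1 was lower there (Kcnn3). In Slc17a8 cells the mean of per-cell CPM gave 3 higher, and against Gad2 cells alone 12 were higher. In manual P2ry1-cre cDR cells, a mean of 20 CPM gave 2 higher and 11 lower, with fewer members tested, and a pseudocount of 10 gave 11 lower. Among alternatives chosen after seeing the data, a pseudocount of 10 gave 9 lower in Sert-cre dlDR and 5 higher in Sert-cre vmDR, where a mean of 20 CPM gave 8. The cause was not tested otherwise. No paired analysis was possible because no comparison rests on replicate animals and the replicate numbers of the labels only name cells. Depth limits members under about 5 CPM in Met and Tph2-low cells.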
